A study of Mus musculus with 8 samples.

Results

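The genes described here make up the MHC class II antigen presentation pathway together with Ciita, their shared transactivator. Of 9 genes named, 8 were measured by a probe set that carries a single gene symbol, out of 19937 genes measured in that way. They were Cd74, H2-Aa, H2-Ab1, H2-Eb1, H2-DMa, H2-Oa, H2-Ob and Ciita, each with 1 such probe set. H2-DMb1 shares its probe set with H2-DMb2, so no value is given for it. RNA from 8 mouse B-lymphoid samples was hybridized to Affymetrix MoGene 1.0 ST arrays, 1 array per sample, and the values are log2 signals. The knockout group is 4 samples labelled c-jun knock out, and the control group is 4 labelled wild type. All 8 carry the strain label SW129/C57BL/6J. Sample titles follow 2 naming series, RO and D/F, each with 2 knockout samples (replicates 1 and 2 in RO, 3 and 4 in D/F) and 2 wild-type samples (numbered likewise). The series concerns lymphoid leukemia induced by BCR-ABL. Whether the samples carry BCR-ABL, how and in which cells c-jun was removed, whether a sample is a clone or a pool, and whether samples had separate animals or cultures as their source are not in the labels used here. Any p-value then measures spread among 8 arrays, and that spread could be technical.

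MHC class II molecules are heterodimers of an alpha and a beta chain that carry peptides from endosomes to the cell surface, where CD4 T cells read them. In the mouse the classical molecules are I-A (H2-Aa with H2-Ab1) and I-E (H2-Ea with H2-Eb1). The invariant chain, Cd74, fills the groove of newly made dimers and leads them to endosomes, DM (H2-DMa with H2-DMb1 or H2-DMb2) then exchanges the last invariant chain fragment for peptide, and DO (H2-Oa with H2-Ob) restrains DM. CIITA does not bind DNA itself and acts through RFX, CREB and NF-Y assembled on the X and Y boxes of class II promoters. Class II is low on early B-cell precursors and abundant on mature B cells.

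The X and Y boxes are shown because they are the DNA through which one transactivator can reach all the class II genes. RefSeq promoters (build GRCm38.p6, 250 bases before to 50 bases after the start) were held for 6 of the 9 genes. They were searched on both strands for TGATTGG, the core of the Y box, and for GNAAC, part of the X box core, placed 15 to 30 bases 5′ of TGATTGG. The letters and the spacing were chosen after reading these promoters, so the matches are a description. TGATTGG was present in the promoters of 5 of the 6 genes and in 7.82% of 32851 promoters, and the spaced pair was present in the same 5 genes and in 0.469% of promoters. GNAAC alone was in 84.8%. The 5 windows below run 5′ to 3′ on the strand of each gene, with GNAAC and TGATTGG in capitals.
H2-Aa, chr17:34287861-34287910, minus strand: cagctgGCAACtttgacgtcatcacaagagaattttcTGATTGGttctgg
H2-Eb1, chr17:34305770-34305818, plus strand: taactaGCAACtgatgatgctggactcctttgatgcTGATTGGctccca
H2-DMb1, chr17:34153091-34153140, plus strand: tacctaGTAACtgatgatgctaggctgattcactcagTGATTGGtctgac
H2-Oa, chr17:34092297-34092346, plus strand: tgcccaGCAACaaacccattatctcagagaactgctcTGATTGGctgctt
H2-Ob, chr17:34238812-34238858, plus strand: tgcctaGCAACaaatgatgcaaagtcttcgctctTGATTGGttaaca
The gap between the capitals was 26 bases in H2-Aa, H2-DMb1 and H2-Oa, 25 in H2-Eb1 and 23 in H2-Ob. The windows lie upstream of the start, with the last base of TGATTGG between 39 and 57 bases before it. The pair was not among the letters of either H2-DMa promoter in the table.

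Array medians over all probe sets ran from 6.93 (knockout replicate 2) to 7.42 (wild type replicate 3), so a signal that follows the array median carries that spread. Jun, the targeted gene, was lower in all 4 knockout samples than in all 4 wild-type samples (log2 difference -2.38, SE 0.32, limma adjusted p over all genes 0.106; exact permutation p = 0.0286, the smallest that 4 against 4 allows), and Cdk6 had a difference of -2.48 (SE 0.56). B-lineage genes were strongly present: all 7 measured markers lay above the array median on all 8 arrays, and Cd79a, Pax5 and the surrogate light chain gene Igll1 had genotype differences of 0.10 (SE 0.11), 0.16 (SE 0.17) and -0.12 (SE 0.10). Wild type replicate 1 had the highest signal of the 8 arrays in 7 of the 8 measured members, against 33.6% of all genes. Its array median, 7.41, was itself close to the highest. For Cd74 (9.97 against 9.93) and Ciita (7.25 against 7.20) its lead over wild type replicate 3 was small. The number of arrays limits the precision of every value.

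The genotype comparison asks whether class II expression differed between knockout and wild-type cells. None of the 8 measured members passed the Benjamini-Hochberg adjustment over all genes, where 0.00502% of all genes did (1 of 19937), and the members' limma adjusted p-values ran from 0.878 to 0.992. At an unadjusted p under 0.05, 0 of 8 members and 2.25% of all genes were counted. The difference, knockout minus wild type, was below 0 for 7 of 8 members, with a median of -0.17 on the log2 scale. Over all genes 72% were below 0 and the median was -0.11. With arrays centred on their medians the all-gene median was 0.06 and 4 of 8 members were below 0, since H2-Eb1, H2-Oa and H2-Ob changed sign to 0.16, 0.05 and 0.16. The knockout and wild-type groups overlapped for each of the 8 members, whereas they did not overlap for 1.03% of all genes with knockout lower and 0.266% with knockout higher. In bulk samples, fewer cells of a type and less RNA per cell cannot be told apart.

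**Figure D1:**
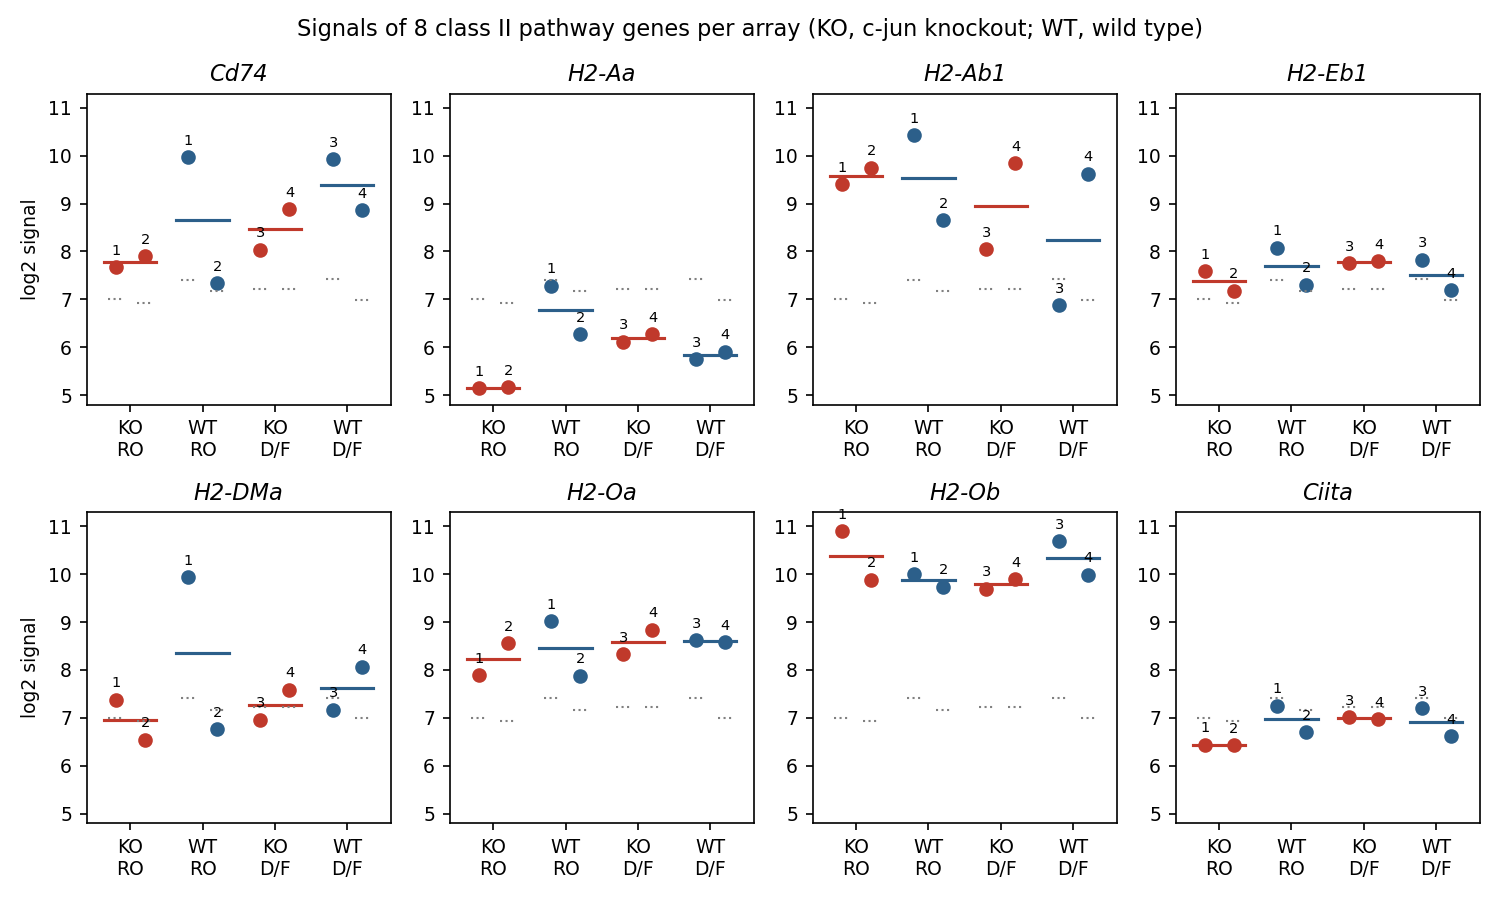
Log2 signal of the 8 measured genes on each array, by genotype and title series. Points are arrays with their replicate number, solid bars are means of 2 arrays and dotted lines are the median of all probe sets on each array. Wild type replicate 1 is the highest point in 7 panels, H2-Ob being the exception.

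Cd74, the invariant chain, had signals of 7.67, 7.90, 8.04 and 8.88 in knockout replicates 1 to 4, against 9.97, 7.33, 9.93 and 8.86 in wild-type replicates 1 to 4. The knockout samples all lay between the extremes of the wild-type group, whose replicates 1 and 3 were the 2 highest and whose replicate 2 was the lowest. Means were 8.12 ± 0.53 in knockout and 9.02 ± 1.24 in wild-type samples (SD, n = 4 each), a 1.87-fold lower level in knockout samples (log2 difference -0.90, SE 0.46) that did not pass (limma adjusted p = 0.878; exact permutation p = 0.257). The difference was -0.87 (SE 0.67) in RO and -0.93 (SE 0.67) in D/F samples (limma adjusted p for the interaction = 0.981), and single arrays set much of each value. The genotype difference was -0.38 when wild type replicate 1 was left out and -1.44 when wild type replicate 2 was. The RO difference was 0.45 and -2.19 with the same arrays left out, and the D/F difference was -0.40 when wild type replicate 3 was left out and -1.47 when wild type replicate 4 was.

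H2-Aa encodes the alpha chain of I-A. Its signals were 5.14 and 5.16 in the RO knockout samples, against 7.28 and 6.27 in the RO wild-type samples, and 6.11 and 6.27 in the D/F knockout samples, against 5.75 and 5.91 in the D/F wild-type samples. The knockout pair was thus the lower one in RO and the higher one in D/F, with no overlap within either series. All 8 signals lay below the median of their array, so the size of these differences is uncertain. In RO the log2 difference was -1.63 (SE 0.31), a 3.09-fold lower level in knockout samples (limma adjusted p = 0.230), and -1.29 with arrays centred on their medians. In D/F it was 0.36 (SE 0.31). Over all 8 samples it was -0.63 (SE 0.36; exact permutation p = 0.229), and -0.23 without wild type replicate 1. The difference in D/F minus that in RO was 1.99 (SE 0.44; limma adjusted p over all genes = 0.535), so the opposite directions did not pass the adjustment. The RO difference was -1.12 once wild type replicate 1 was dropped. When wild type replicate 2 was dropped instead, both the RO difference (-2.13, limma adjusted p = 0.0157) and the interaction (2.50, limma adjusted p = 0.0366) passed, with the 1 remaining wild-type sample assumed to vary like the other groups. The RO wild-type samples themselves stood 1.01 apart. A knockout pair wholly below the wild-type pair was common in RO (45.5% of all genes), and one wholly above it was found in D/F for 9.57% of all genes.

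In the RO samples taken by themselves 0 of 8 members passed the adjustment, against 0.0401% of all genes. H2-Aa was the 1 of 8 members with an unadjusted p under 0.05 there, against 8.39% of all genes and 6.24% with knockout lower. In D/F 0 of 8 passed (0.00502% of all genes) and 0 had such an unadjusted p (1.89%). The members' median difference was -0.42 in RO, where 6 of 8 were below 0, and 0.04 in D/F, where 4 of 8 were. All genes had medians of -0.25 in RO, with 73.5% below 0, and 0.01 in D/F, with 47.6% below 0. Between the title series themselves 0 of 8 members passed, against 0.0803% of all genes.

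H2-Ab1 encodes the beta chain that pairs with H2-Aa, yet its signals followed another order. They were 9.41, 9.75, 8.05 and 9.84 in knockout replicates 1 to 4, against 10.43, 8.65, 6.88 and 9.62 in wild-type replicates 1 to 4. Both extremes were wild-type samples, replicate 1 and replicate 3, which stood 3.55 apart on the log2 scale, an 11.7-fold range and the widest of the 8 members. Wild type replicate 3 was the 1 array on which H2-Ab1 lay below the array median. The same array had the second highest Cd74 signal. The genotype difference was 0.37 (SE 0.58; exact permutation p = 0.657), and -0.24 without wild type replicate 3. Weighting the arrays by their estimated quality gave 1.23, which did not pass. In the RO knockout samples, where H2-Aa was lowest, H2-Ab1 stood 0.33 and 0.67 above its own mean over all arrays, while the deviations of H2-Aa from its own mean were -0.85 and -0.83. Over the 8 samples the Pearson correlation of the 2 chains was 0.24, given as a description.

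H2-Eb1 encodes the beta chain of I-E. Its signals were 7.59, 7.18, 7.76 and 7.80 in knockout samples, against 8.07, 7.31, 7.83 and 7.19 in wild-type samples. The groups covered nearly the same range, with a difference of -0.02 (SE 0.23; exact permutation p = 0.914) that became 0.16 with arrays centred on their medians. Its partner H2-Ea, whose promoter is defective in C57BL/6 mice, lay below the array median on all 8 arrays, with signals of 6.12 to 6.75 in knockout and 5.98 to 6.53 in wild-type samples.

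**Figure D2:**
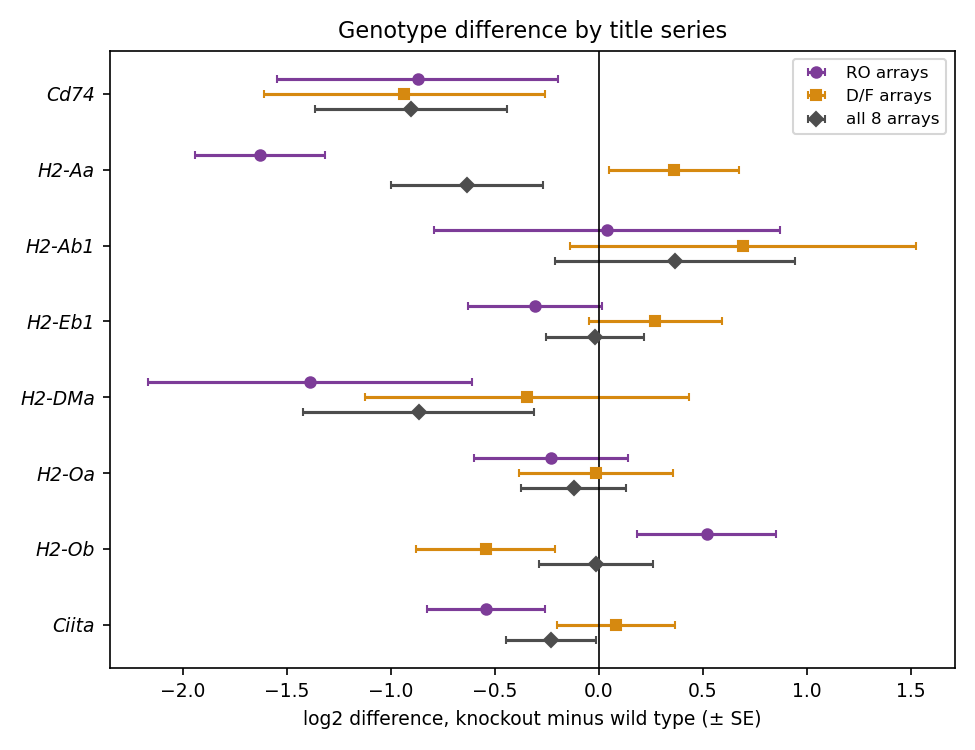
Log2 difference, knockout minus wild type, with the SE of the limma coefficient, for each measured member in the RO arrays, the D/F arrays and all 8 arrays. H2-Aa (-1.63 and 0.36) and H2-Ob (0.52 and -0.54) lie on opposite sides of 0 in RO and D/F, and Cd74 (-0.87 and -0.93) on the same side. The H2-Ob value in RO is 0.01 without knockout replicate 1 and the Cd74 value in RO is 0.45 without wild type replicate 1.

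H2-DMa encodes the alpha chain of DM. Its signals were 7.38, 6.55, 6.96 and 7.59 in knockout samples, against 9.94, 6.76, 7.17 and 8.06 in wild-type samples. Wild type replicate 1 was 1.88 above the next highest array. The means of 7.12 ± 0.46 in knockout and 7.98 ± 1.41 in wild-type samples (SD, n = 4 each) differed by -0.86 (SE 0.56; exact permutation p = 0.343), by -0.12 without that array and by -0.11 with arrays weighted by their estimated quality. In RO the difference was -1.39 (SE 0.78). It was 0.20 when wild type replicate 1 was left out and -2.98 when wild type replicate 2 was (limma adjusted p = 0.0267). The second value takes its spread from the other groups, although the RO wild-type samples stood 3.18 apart, wider than that assumes.

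DO is made of H2-Oa and H2-Ob. H2-Oa, the alpha chain, had signals of 7.89, 8.55, 8.33 and 8.84 in knockout samples, against 9.02, 7.88, 8.62 and 8.58 in wild-type samples, with a difference of -0.12 (SE 0.25; exact permutation p = 0.629) that became 0.05 with arrays centred on their medians. H2-Ob, the beta chain, had 10.90 and 9.88 in RO knockout samples, against 10.004 and 9.73 in RO wild-type samples, and 9.69 and 9.90 in D/F knockout samples, against 10.69 and 9.99 in D/F wild-type samples. The highest H2-Ob signals thus came from knockout replicate 1 and wild type replicate 3, and H2-Ob was the 1 member for which wild type replicate 1 was not highest. Its difference was 0.52 (SE 0.33) in RO and -0.54 (SE 0.33) in D/F, and the interaction was -1.06 (SE 0.47; limma adjusted p = 0.716). Leaving out knockout replicate 1 gave 0.01 in RO and -0.55 for the interaction, and leaving out wild type replicate 3 gave -0.19 in D/F. With H2-Aa it made 2 of 8 members counted for the interaction at an unadjusted p under 0.05, against 5.38% of all genes, and 0 of 8 passed the adjustment, against 0.0301%. Over the 8 samples H2-Oa with H2-Ob had a Pearson r of -0.20 and a Spearman rho of 0.33, of opposite sign, while H2-Oa with Cd74 had r of 0.83 and rho of 0.95.

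Ciita, the transactivator, had signals of 6.44, 6.43, 7.01 and 6.97 in knockout samples, against 7.25, 6.70, 7.20 and 6.61 in wild-type samples. All 8 lay below the median of their own array. The difference was -0.23 (SE 0.22; exact permutation p = 0.400) over all samples, -0.54 (SE 0.28) in RO and 0.09 (SE 0.28) in D/F. Centring each array on its median changed the overall difference to -0.06 and the RO difference to -0.21. Without wild type replicate 1, and without centring, the overall and RO differences were -0.05 and -0.26. The Ciita signal followed the median of the array closely: over the 8 arrays Pearson's r was 0.962 (2-sided exact permutation p = 0.000397) and Spearman's rho was 0.929 (exact permutation p = 0.00223), and r was 0.940 without the 2 arrays farthest from the middle of the medians. All genes had a median r of 0.631 with the array median, and 3.57% had one as high as that of Ciita. The same relation gave 0.846 for H2-Eb1 (exact permutation p = 0.0113), 0.703 for H2-Aa and 0.702 for Cd74, but -0.357 for H2-Ab1 (0.241 without the same 2 arrays) and 0.0557 for H2-Ob. The p-values of these 8 relations are unadjusted. The part of the array median in the Ciita values was not tested beyond these correlations and the rescaled values given here.

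**Figure D3:**
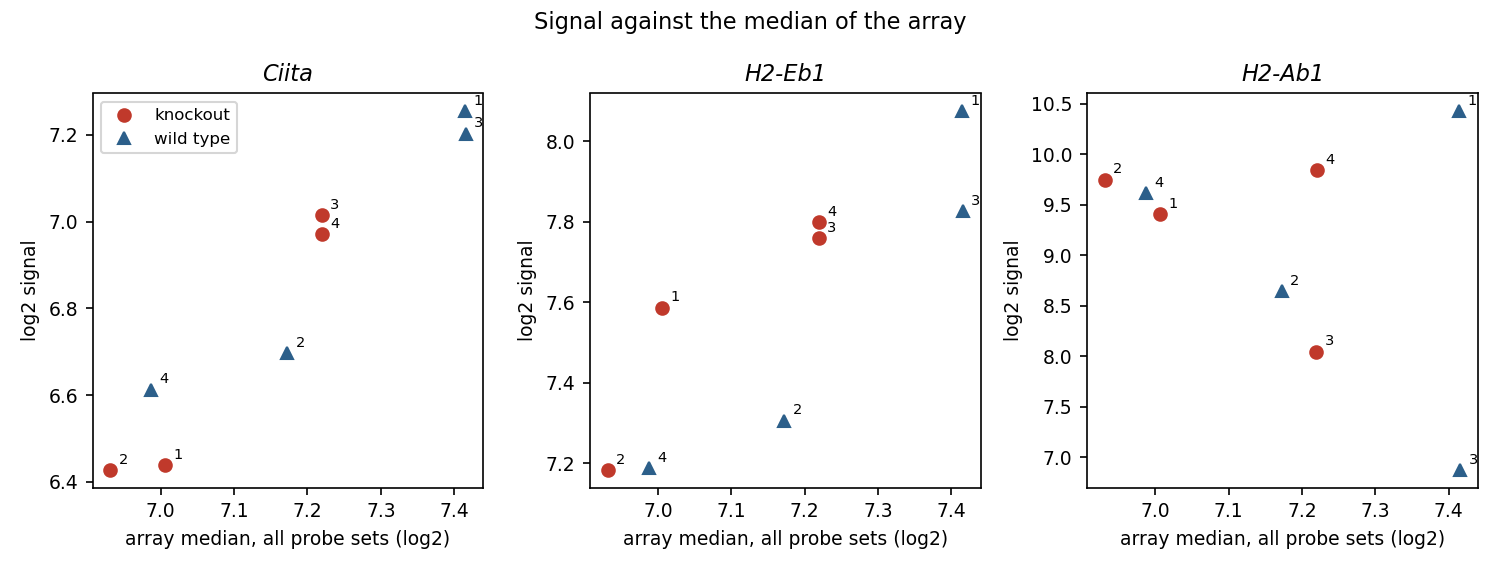
Log2 signal of Ciita, H2-Eb1 and H2-Ab1 against the median of all probe sets on the same array; circles are knockout and triangles wild-type samples, with replicate numbers. Ciita rises with the array median (r 0.962), H2-Eb1 does so more loosely (0.846) and H2-Ab1 does not (-0.357).

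Each other gene was then correlated with Ciita over the 8 samples, with a 2-sided exact permutation test over all pairings of the samples, adjusted over 19936 genes. H2-Eb1 had Pearson's r of 0.846 (exact permutation p = 0.0130, adjusted p = 0.0435) and Spearman's rho of 0.905 (exact permutation p = 0.00456, adjusted p = 0.0270), and r of 0.706 without the 2 samples farthest from the Ciita median, wild type replicate 1 and knockout replicate 2. That call has to be read against the table: 32.9% of all genes passed the same adjustment, and 22.95% had an r at least as high. Cd74 had r of 0.769 (exact permutation p = 0.0344, adjusted p = 0.0800) and rho of 0.738 (exact permutation p = 0.0458, adjusted p = 0.104), with r of 0.659 without those 2 samples. H2-Aa had r of 0.739 (exact permutation p = 0.0316, adjusted p = 0.0758) and rho of 0.643 (exact permutation p = 0.0962, adjusted p = 0.177), with r of 0.460 without them. H2-Oa had r of 0.597 and rho of 0.571, H2-DMa 0.498 and 0.429, H2-Ob -0.0729 and 0.0714, and H2-Ab1 -0.298 and -0.0714, none of which passed (adjusted p from 0.208 to 0.916). The r of H2-DMa became -0.292 without the same 2 samples, so its positive value rests on them. With arrays centred on their medians no gene passed the adjustment of the exact permutation test, and 3.72% of genes, none of them a member, had a positive r at an unadjusted p under 0.05. There Cd74 had 0.641, H2-Aa 0.587 and H2-Eb1 0.449, with 5.90%, 8.06% and 14.2% of genes at least as high. H2-Oa had 0.393, H2-DMa 0.329, H2-Ab1 -0.290 and H2-Ob -0.623. Each title series holds 4 samples, too few for a correlation of its own. As deviations from the mean of each series, r was 0.728 for Cd74, 0.791 for H2-Aa, 0.862 for H2-Eb1 and -0.146 for H2-Ab1.

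Among the 28 pairs of measured members, 21 correlations were positive, with a median r of 0.503 and a range from -0.447 (H2-Aa with H2-Ob) to 0.846 (H2-Eb1 with Ciita). After Cd74 with H2-Oa (0.825), the higher values included H2-Aa with H2-DMa (0.737) and Cd74 with H2-DMa (0.674). Without wild type replicate 1 the median was 0.205 and H2-Aa with H2-DMa had 0.194, whereas Cd74 with H2-Oa had 0.749. With arrays centred on their medians the median r was 0.30 and 20 pairs were positive. These correlations share the same 8 arrays and are a description. The spread of the members differed as well. Cd74, H2-Aa, H2-Ab1 and H2-DMa had an SD over the 8 arrays above that of 97.0% to 99.3% of genes within 0.5 of their mean log2 signal, while H2-Eb1, H2-Oa, H2-Ob and Ciita were above 72.1% to 91.1%.

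**Figure D4:**
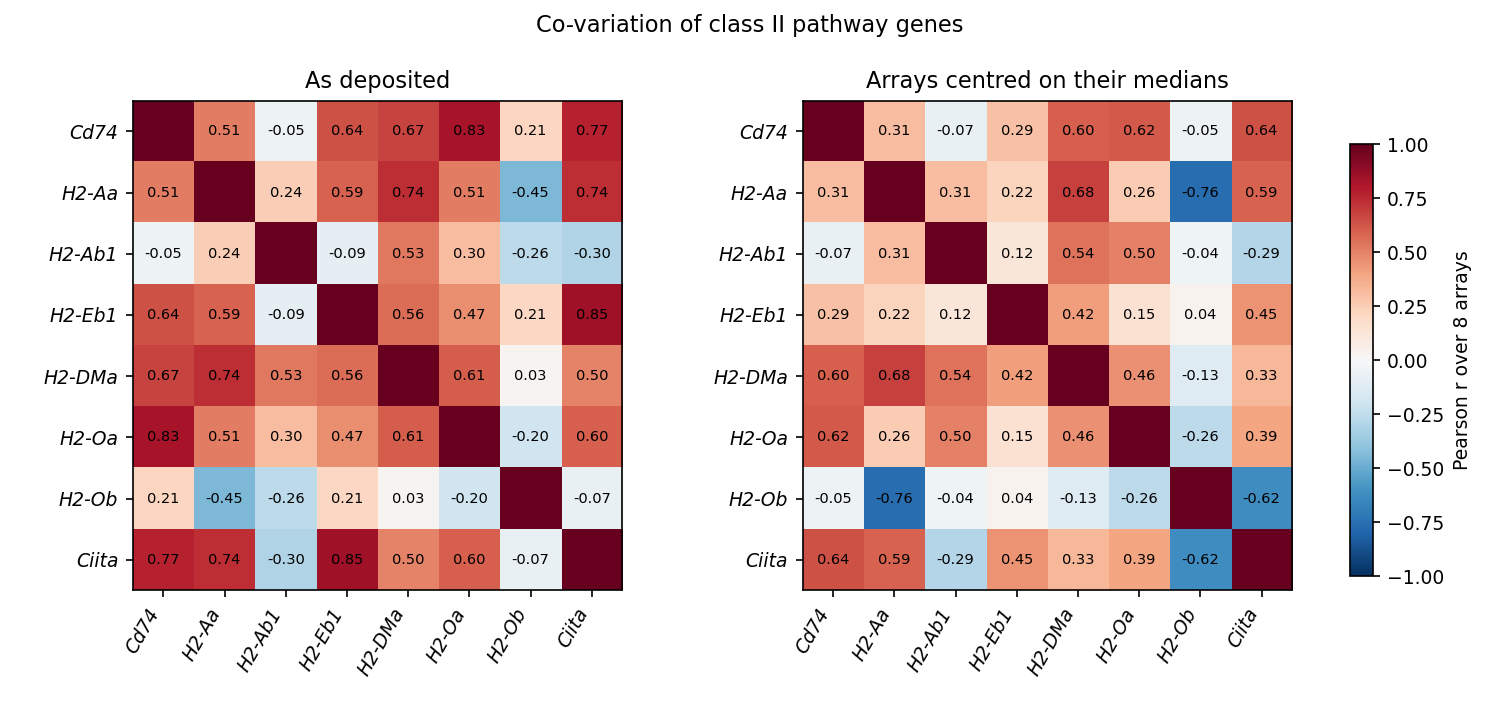
Pearson correlation over the 8 arrays for each pair of measured members, with the values as deposited on the left and with arrays centred on their medians on the right. The lowest value on the left is that of H2-Aa with H2-Ob (-0.447), which is -0.760 after centring. Every pair without H2-Ab1 has a lower r after centring. The pairs with H2-Ab1 have a higher r, except that with Cd74.

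Likeness to the members was ranked by Pearson's r over the 8 samples, as a description. The class II profile, taken as the mean deviation of Cd74, H2-Aa, H2-Ab1 and H2-Eb1 from their own means, was most like that of Zmynd19 (0.988), Cabin1 (0.982), Sprtn (0.982), Ddx19b (0.977), the helicase Ruvbl2 (0.965) and Csk, a kinase that restrains SRC kinases (0.958). In all 6 the highest signal was that of wild type replicate 1 and the next that of knockout replicate 4. The profile itself stood at 1.13 in wild type replicate 1 and at 0.39 or less in the other arrays, and without that array the 6 genes had r from 0.860 to 0.969. The 4 genes most like Ciita were Alx4 (0.998), the fructose transporter Slc2a5 (0.994), the carboxylesterase Ces2e (0.994) and Plac1 (0.993), with r from 0.992 to 0.998 without wild type replicate 1. Slc2a5, Ces2e and Plac1 also lay below the array median on all 8 arrays, and Alx4 on 4.

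The factors that carry CIITA on the X and Y boxes were measured in full. Of 7 genes, 0 passed in any comparison, 5 were above 0 for genotype and the median was 0.08. Rfx5 had a difference of 0.01 (SE 0.17), Rfxank -0.02 (SE 0.16), Rfxap -0.15 (SE 0.17), Creb1 0.19 (SE 0.18), Nfya 0.08 (SE 0.13), Nfyb 0.27 (SE 0.23) and Nfyc 0.08 (SE 0.16). All 7 lay above the array median on all 8 arrays, unlike Ciita. Of 14 measured genes known to act upstream of Ciita in B cells or under interferon gamma, 0 passed in any comparison and 7 were above 0, with a median of 0.003. Ifngr1, a chain of the interferon gamma receptor, had 0.49 (SE 0.21), with 0.85 in D/F and 0.14 in RO samples. Irf1 had -0.34 (SE 0.19) and Prdm1, which represses Ciita in plasma cells, -0.29 (SE 0.18). Prdm1 lay below the array median on all 8 arrays.

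Along chromosome 17 the class II genes are interspersed with genes of the class I pathway, in the order H2-Oa, Brd2, H2-DMa, H2-DMb2, H2-DMb1, Psmb9, Tap1, Psmb8, Tap2, H2-Ob, H2-Ab1, H2-Aa, H2-Eb1, H2-Eb2 and Btnl2. Of the 8 measured region genes that are not members, 5 were below 0 and 0 passed, with a median of -0.19. The immunoproteasome subunit Psmb9 was the 1 with an unadjusted p under 0.05, against 2.25% of all genes. Its signals were all lower in knockout than in wild-type samples, as for 1.03% of all genes. The difference was -0.40 (SE 0.14; limma adjusted p = 0.878), with -0.63 in RO and -0.17 in D/F samples. The highest Psmb9 signal was that of wild type replicate 1 (11.56). The peptide transporter genes Tap1 and Tap2 had -0.27 (SE 0.15) and -0.36 (SE 0.20), Psmb8 -0.23 (SE 0.14), Btnl2 -0.15 (SE 0.25), Brd2 0.02 (SE 0.14), H2-Ea 0.09 (SE 0.20) and the class II paralog H2-Eb2 0.09 (SE 0.30). H2-Eb2 had -0.51 in RO and 0.69 in D/F samples (limma adjusted p for the interaction = 0.716). Its neighbour H2-Eb1 had -0.31 in RO and 0.27 in D/F samples. Class I pathway genes outside the region, 8 measured, had 4 below 0, a median of -0.04 and 0 that passed. Tapasin (Tapbp) had -0.31 (SE 0.17), the chaperone Pdia3 0.38 (SE 0.26) and Nlrc5, the class I counterpart of CIITA, -0.23 (SE 0.15).

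Genes that act on class II after synthesis, 12 measured, had 7 below 0, a median of -0.14 and 0 that passed in any comparison. The cathepsin Ctsh had -0.64 (SE 0.32), and its signals were 6.10, 5.78, 6.44 and 6.33 in knockout samples, against 7.89, 6.53, 6.55 and 6.23 in wild-type samples, highest again in wild type replicate 1. Ctsl had -0.35 (SE 0.20) and Ctsz -0.33 (SE 0.24). Ifi30, the lysosomal thiol reductase GILT, was chosen after its values were seen. It had 10.77, 12.53, 11.45 and 11.63 in knockout samples, against 12.83, 12.18, 8.04 and 10.32 in wild-type samples. Its lowest signal was in wild type replicate 3, the array with the lowest H2-Ab1 signal. The Ifi30 difference was 2.36 in D/F and -0.86 in RO samples, and neither passed the adjustment. Interferon gamma response genes, 7 measured, had 5 below 0 and a median of -0.11, with Cxcl10 at -0.41 (SE 0.19), Irgm1 at -0.25 (SE 0.23) and Gbp3 at 0.14 (SE 0.13). Costimulatory genes, 6 measured, had 6 below 0 and a median of -0.16. Beside these lists, 72% of all genes were below 0 and their median was -0.11. The ICOS ligand gene Icosl had -0.97 (SE 0.25; limma adjusted p = 0.878), Pdcd1lg2 -0.19 (SE 0.21) and Cd40 -0.17 (SE 0.20), and 0 passed. Ctsl, Cxcl10 and Pdcd1lg2 lay below the array median on all 8 arrays, and Ctsh on 7, which limits what their differences can show.

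Markers of mature B cells, which carry abundant class II, crossed between the title series in the same directions as H2-Aa. Of 6 measured markers, 6 were below 0 in RO (73.5% of all genes were) and 6 above 0 in D/F (52.4% of all genes were), with log2 medians of -0.60 and 0.48. Of these, 0 passed the adjustment. The interaction was above 0 for 6 of 6 markers, and for 14267 of 19937 genes. Other cell lists shared part of this pattern. In RO 8 of 8 dendritic cell, 9 of 10 macrophage and 5 of 5 T-cell markers were below 0. In D/F 5 of 8, 5 of 10 and 2 of 5 were above 0. Their interactions were above 0 for 8 of 8, 9 of 10 and 5 of 5. Cd22, an inhibitory coreceptor, had 7.55 and 7.58 in RO knockout samples, against 8.96 and 9.29 in RO wild-type samples, and 8.76 and 10.16 in D/F knockout samples, against 8.49 and 8.57 in D/F wild-type samples. The knockout pair was lower in RO and higher in D/F without overlap, as for H2-Aa, H2-Ea and H2-Eb2. The Cd22 interaction did not pass (limma adjusted p = 0.450). Taken singly, the knockout pair was wholly lower in RO for 45.5% of all genes and wholly higher in D/F for 9.57%. The mean signal over the 6 markers was 6.83 and 6.89 in RO knockout, against 7.73 and 7.35 in RO wild-type samples, and 7.60 and 7.98 in D/F knockout, against 7.37 and 7.21 in D/F wild-type samples. The array medians were 7.01 and 6.93 in RO knockout, against 7.41 and 7.17 in RO wild-type samples. In D/F they were 7.22 and 7.22 in knockout, against 7.42 and 6.99 in wild-type samples. The marker values are not centred on these medians, so the RO differences carry that gap. For genotype over all samples 4 of the 6 were below 0 and 2 above, with a median of -0.10. Cd22 had a genotype difference of -0.32 (SE 0.45), Fcer2a -0.19 (SE 0.19) and Cr2 -0.14 (SE 0.20). Cxcr5, chosen after its values were seen, had -0.74 in RO and 0.93 in D/F samples, and 0.09 (SE 0.33) over all samples. Ms4a1, Fcer2a and Cxcr5 lay below the array median on all 8 arrays. The part of these markers in the H2-Aa values was not tested.

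**Figure D5:**
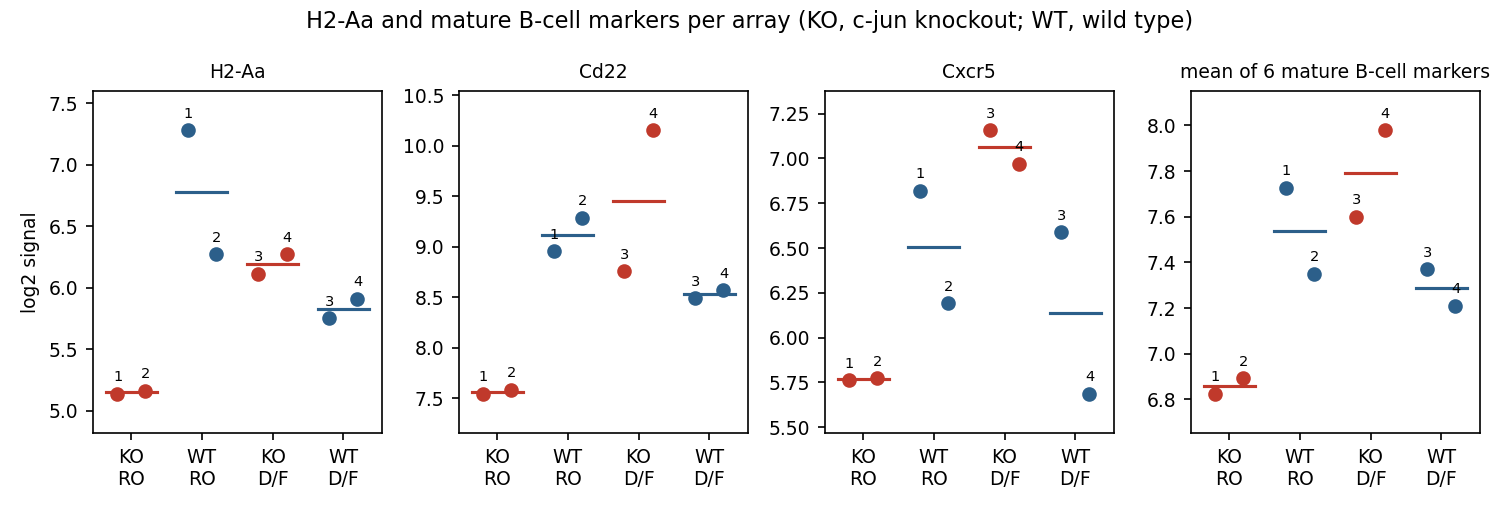
Log2 signal of H2-Aa, Cd22 and Cxcr5 and the mean of 6 mature B-cell markers on each array, by genotype and title series, with replicate numbers; bars are means of 2 arrays and each panel has its own scale. The knockout pair lies below the wild-type pair in RO and above it in D/F in each panel, but the panels are not independent: Cxcr5 was chosen for these values and the mean includes Cd22 and Cxcr5. Signals are as deposited, not centred on the array medians.

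Most markers of other cells that carry class II or could be present lay below the array median on all 8 arrays, but not all. Above it on all 8 arrays lay 3 of 8 dendritic cell markers, 1 of 10 macrophage markers and 1 of 5 T-cell markers. Of 8 dendritic cell markers, 5 lay below the array median on all arrays (Itgax, Xcr1, Clec9a, Cd209a and Siglech), and the list's mean signal ran from 6.48 to 6.94 in knockout and from 6.79 to 7.33 in wild-type samples. All 8 had a genotype difference below 0, with a median of -0.12, and 0 passed. Over all genes 72% were below 0 and the median was -0.11, which holds beside the macrophage and T-cell counts too. The list was highest in wild type replicate 1, as were 33.6% of all genes. Ccr7, which lymphocytes also express, had 7.20, 7.22, 8.12 and 8.55 in knockout samples, against 9.70, 7.77, 7.59 and 9.40 in wild-type samples. Itgax had a difference of -0.27 (SE 0.22) and Zbtb46 -0.22 (SE 0.21). Of 10 macrophage markers, 6 lay below the array median throughout (Csf1r, Adgre1, Itgam, Cd14, C1qb and Mpeg1), and the list's mean ran from 6.85 to 6.94 in knockout and from 6.70 to 7.23 in wild-type samples, with 8 of 10 below 0 and 0 that passed. Mpeg1 had -0.50 (SE 0.21), Itgam -0.38 (SE 0.20) and Cd68 -0.30 (SE 0.16). Of 5 T-cell markers, 3 lay below it throughout (Cd3d, Cd3g and Cd4), with a mean from 6.41 to 6.74 in knockout and from 6.49 to 7.05 in wild-type samples; 5 of 5 were below 0 and 0 passed. Cd3d had -0.34 (SE 0.19), Cd8a -0.23 (SE 0.19) and Cd4 -0.16 (SE 0.18). The part of such cells in the high Cd74 and H2-DMa signals of wild type replicate 1 was not tested.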

How the data were processed

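RNA from 4 knockout and 4 wild-type samples was measured on 1 array each. MAS5 is named in the submitters' processing notes, with version, settings and genome build not given in the sources. Log2 values were deposited by the authors for 34760 probe sets; the log base was read from the values, since the linear values with 2% trimmed from each end average 500 on each array. That scaling leaves array medians unequal. No detection calls were used.

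The platform annotation gave 21640 probe sets 1 symbol, 1321 several and 11799 none. The single-symbol probe set of highest mean represented each gene. limma 3.58.1 in R 4.3.3 (lmFit, eBayes with trend) was fitted to all genes with genotype and title series (5 residual degrees of freedom), and with 4 group means for the differences within series and the interaction (4 degrees), at a Benjamini-Hochberg adjusted p of 0.05. Both were tested on simulated data. Exact permutation tests were 2-sided, over 70 assignments of the samples or over all pairings. No filter on low values was used, so all 8 measured members were tested.

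Members, lists and alternatives were chosen with earlier results of these data known. Named were the members, Jun, the region and X and Y box factor lists, up to 3 genes of smallest genotype p of each other list, and the genes of most similar pattern among 17203 genes (predicted, chemoreceptor and microRNA symbols left out). Leaving out wild type replicate 1 from the pair correlations and the likeness was added after seeing the data. Groups came from the genotype label and replicate numbers from the order of deposit. Promoters and gene order are RefSeq's, GRCm38.p6.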

Additional observations from a re-analysis of the deposited data

How the results depend on the processing

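No paired analysis was possible because the labels carry no replicate numbers. None of the 8 members passed the adjustment for genotype or in D/F under any alternative run; the 3 calls gained, all without wild type replicate 2, are H2-Aa (-2.13) and H2-DMa (-2.98) in RO and the H2-Aa interaction (2.50). Of 410 alternative values of single members, 50 changed sign. Cd74, H2-Aa, H2-DMa and Ciita kept a genotype difference below 0 throughout, but its size was not stable: with 1 array left out it ran from -1.44 to -0.38 for Cd74, -0.86 to -0.23 for H2-Aa, -1.40 to -0.12 for H2-DMa and -0.41 to -0.05 for Ciita, and quantile normalization gave -0.04 for Ciita. With arrays centred on their medians the genotype difference was 0.16 for H2-Eb1, 0.0514 for H2-Oa and 0.16 for H2-Ob, the RO difference 0.0307 for H2-Eb1 and 0.11 for H2-Oa, and the H2-Oa interaction -0.11. Quantile normalization gave 0.12 for H2-Eb1, -0.0263 for H2-Ab1 in RO and 0.0314 for H2-Oa in D/F, and array weights 0.12 for H2-Oa, 1.23 for H2-Ab1 and -0.11 for H2-DMa. The cause was not tested.

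With 1 array left out, the lowest and highest genotype differences were -0.24 and 0.85 for H2-Ab1, -0.20 and 0.20 for H2-Eb1, -0.33 and 0.13 for H2-Oa and -0.32 and 0.23 for H2-Ob. The RO differences ran from -2.19 to 0.45 for Cd74, -2.13 to -1.12 for H2-Aa, -0.85 to 0.93 for H2-Ab1, -0.69 to 0.0791 for H2-Eb1, -2.98 to 0.20 for H2-DMa, -0.80 to 0.34 for H2-Oa, 0.01 to 1.03 for H2-Ob and -0.82 to -0.26 for Ciita. The D/F differences ran from -1.47 to -0.40 for Cd74, -0.89 to -0.19 for H2-Ob, -0.68 to 2.07 for H2-Ab1, -0.0466 to 0.59 for H2-Eb1, -0.79 to 0.11 for H2-DMa, -0.27 to 0.24 for H2-Oa and -0.21 to 0.38 for Ciita. Interactions ran from -1.38 to 1.25 for Cd74, 1.48 to 2.50 for H2-Aa, -0.72 to 2.03 for H2-Ab1, -0.55 to 2.64 for H2-DMa, -0.35 to 0.78 for H2-Oa and -1.57 to -0.55 for H2-Ob. Correlations with Ciita ran from -0.728 to 0.102 for H2-Ab1 and -0.428 to 0.451 for H2-Ob, and H2-DMa had -0.292 without the 2 samples farthest from the Ciita median.

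Counts of all genes called moved too. For genotype it was 1, with 2 under array weights, 0 with centred arrays, 0 with the dimmer genes left out and 0 to 2 with 1 array left out. In RO it was 8, with 4 after centring, 4 after quantile normalization, 32 on the 4 RO arrays alone and 2 to 111 with 1 array left out. In D/F it was 1, with 0 after centring, 0 after quantile normalization, 79 on the 4 D/F arrays alone and 5 to 27 with 1 array left out. The interaction had 6, with 6 to 38 with 1 array left out. The correlation with Ciita had 6562, with 0 after centring and 0 after quantile normalization, which remove the spread of the array medians. Signals of H2-Aa and Ciita below the array median limit what their differences can show.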
